A study of Mus musculus with 4 samples.

Results

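Icos, Tnfrsf4, Tnfrsf9, Tnfrsf18, Cd27, Tnf, Lta and Ltb are genes of costimulation: the receptor ICOS, 4 costimulatory receptors of the tumour necrosis factor (TNF) receptor superfamily and 3 TNF superfamily ligands. They were taken by name, as the 8 gene columns with these symbols among the 17187 genes of a deposited expression table. The table holds 4 RNA-seq libraries of group 2 innate lymphoid cells (ILC2s), lymphocytes without an antigen receptor that release type 2 cytokines, sorted from the lungs of BALB/c mice. Both groups were cultured for 18 hours after isolation, 2 libraries with an antibody against CD226 and 2 with an isotype control antibody. CD226 is a costimulatory receptor of the immunoglobulin superfamily, and the title of the series speaks of blocking it. A concentration of 5 µg/mL is stated in a way that does not show whether it also held for the isotype antibody. The design text speaks of treated mice and the table itself marks the control libraries as PBS, and the sample labels were followed. No label ties the replicates to separate mice or cultures, so the spread behind each p-value is that among the libraries and may be technical.

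ICOS is a relative of CD28 that binds ICOS ligand and recruits PI3-kinase through its cytoplasmic tail, and in mouse lung ILC2s it is known to support survival and cytokine release. OX40 (Tnfrsf4), 4-1BB (Tnfrsf9), GITR (Tnfrsf18) and CD27 are receptors that carry no kinase of their own and recruit TRAF adaptors, which lead to NF-kB. TNF, lymphotoxin alpha (Lta) and lymphotoxin beta (Ltb) are ligands: TNF and lymphotoxin alpha trimers act on the TNF receptors, and lymphotoxin alpha with beta forms a membrane complex that acts on the lymphotoxin beta receptor.

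Values are normalised reads, the authors' deposited signal per gene and library. The estimated depth was 13521393 and 12474165 reads for anti-CD226 replicates 1 and 2, and 12433700 and 17847249 reads for isotype replicates 1 and 2. The ILC2 markers fixed for the check (Gata3, Il1rl1, Il7r, Rora, Klrg1, Thy1, Ptprc, Il5, Il13 and Areg) were above 0 in every library. Anti-CD226 replicate 2 had the only clearly positive length trend and the most Chil3, a macrophage marker. Spearman's rho between a gene's deviation from its 4-library mean and its transcript length, across 12737 genes, was -0.37 and 0.55 in anti-CD226 replicates 1 and 2, and -0.0048 and -0.49 in isotype replicates 1 and 2. The 8 macrophage markers in the table summed to 124 and 977 normalised reads in anti-CD226 replicates 1 and 2, against 78.5 and 59.8 in isotype replicates 1 and 2. Chil3 alone had 16.5 and 784 in anti-CD226 and 19.9 and 0 in isotype libraries, and the other 7 markers summed to 107 and 193 in anti-CD226 and 58.6 and 59.8 in isotype libraries. Lyz2, with 8.24 and 51.8 in anti-CD226 and 3.32 and 0.773 in isotype libraries, was also highest in anti-CD226 replicate 2. So were Cd68, Mpeg1 and Csf1r, while Itgam, Apoe and Adgre1 were not. Itgam had 19.6 and 18.7 in anti-CD226 and 1.11 and 0 in isotype libraries. Adgre1 had 7.21 and 2.20 in anti-CD226 and 2.21 and 7.73 in isotype libraries. Mpeg1 was at 0 in both isotype libraries, and Chil3 and Itgam at 0 in isotype replicate 2. Of 7 T cell markers, Cd3d, Cd3e and Cd3g were in the table, with sums of 375 and 295 in anti-CD226 libraries and of 356 and 383 in isotype libraries. Of 5 B cell markers, Cd79b was in the table, with 210 and 166 normalised reads in anti-CD226 libraries and 192 and 172 in isotype libraries. Marker sums for natural killer cells were 243 and 129 in anti-CD226 and 192 and 306 in isotype libraries (2 of 5 markers in the table), and for group 3 innate lymphoid cells 137 and 108 in anti-CD226 and 48.8 and 65.7 in isotype libraries (3 of 5). Mast cell and basophil markers summed to 980 and 1447 in anti-CD226 and 1085 and 930 in isotype libraries (5 of 5, most of it Kit), with Ms4a2 at 0 in replicate 1 of both groups. Cpa3, Mcpt8 and Fcer1a each went the other way, lower in both anti-CD226 libraries than in both isotype libraries. Cpa3 had 37.1 and 63.9 in anti-CD226 and 84.0 and 100 in isotype libraries. Mcpt8 had 15.4 and 18.7 in anti-CD226 and 34.3 and 34.8 in isotype libraries. Fcer1a had 14.4 and 7.72 in anti-CD226 and 16.6 and 20.9 in isotype libraries. The dendritic cell markers in the table (4 of 6) summed to 1445 and 1503 in anti-CD226 and 1673 and 1470 in isotype libraries, and among them Itgax had 14.4 and 46.3 in anti-CD226 and 1.11 and 0 in isotype libraries.

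The 3 ligand genes lie side by side on chromosome 17 (GRCm38). Ltb runs from 35194439 to 35196320 on the plus strand, Tnf from 35199381 to 35202007 on the minus strand and Lta from 35203165 to 35205351 on the minus strand. Only 3060 bases separate Ltb from Tnf, and 1157 bases separate Tnf from Lta. All 3 had a lower mean in the anti-CD226 libraries, and their upstream sequence is shown for that reason and for their shared location. The direction was not particular to them: Tnfrsf9, Tnfrsf18 and Cd27 also had a lower mean, and none of these differences passed the test given below. Each line gives the bases before the annotated start, read 5′ to 3′ on the gene's own strand, at chr17:35194257-35194438 (plus strand) for Ltb, chr17:35202008-35202257 (minus strand) for Tnf and chr17:35205352-35205601 (minus strand) for Lta.
Ltb: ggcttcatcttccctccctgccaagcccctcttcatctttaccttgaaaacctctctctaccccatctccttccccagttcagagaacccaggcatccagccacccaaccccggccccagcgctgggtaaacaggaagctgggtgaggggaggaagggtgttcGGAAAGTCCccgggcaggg
Tnf: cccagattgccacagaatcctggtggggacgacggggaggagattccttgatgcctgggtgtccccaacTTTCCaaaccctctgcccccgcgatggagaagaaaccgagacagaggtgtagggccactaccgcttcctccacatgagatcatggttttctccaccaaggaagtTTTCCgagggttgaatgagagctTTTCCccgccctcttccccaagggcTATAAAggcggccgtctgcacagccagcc
Lta: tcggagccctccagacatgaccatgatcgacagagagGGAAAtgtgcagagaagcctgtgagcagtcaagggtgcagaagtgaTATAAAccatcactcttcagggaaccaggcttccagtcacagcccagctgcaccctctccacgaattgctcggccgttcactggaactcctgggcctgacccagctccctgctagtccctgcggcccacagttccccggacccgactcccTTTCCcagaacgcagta
The sequences are RefSeq's (GRCm38.p6), from the C57BL/6J reference and not from the BALB/c mice of the study. Capitals mark matches on either strand to 4 motifs. The NFAT core is spelled GGAAA. A kappaB type motif, spelled GGAAANTCC, contains that core. The AP-1 type motif is spelled TGANTCA. The TATA box is spelled TATAAA. Ltb held 1 match to the kappaB type motif, 87 bases upstream of the RefSeq start, and its window of 182 bases ends where GENCODE starts the gene. Tnf held 3 NFAT cores, at 181, 77 and 54 bases upstream, and a TATA box at 29 bases. Lta held NFAT cores at 213 and 17 bases upstream and a TATA box at 167 bases, and none of the windows held the AP-1 type motif. Among 32851 annotated windows of 250 bases, 55.6% held the NFAT core, 1.07% the kappaB type motif, 6.75% the AP-1 type motif and 12.4% the TATA box; in windows of 182 bases, the shares were 45.8%, 0.801%, 4.96% and 8.45% in the same order. A match describes the letters only.

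The 8 genes spanned a wide range of levels, which are compared per kilobase of the longest protein-coding transcript (GENCODE M21). Icos stood first, with 2700 and 2661 normalised reads per kilobase in anti-CD226 libraries and 2425 and 2614 in isotype libraries. Tnfrsf18 followed with 2625 and 1725 in anti-CD226 libraries against 2604 and 2806 in isotype libraries, and the ranges of these 2 genes over the 4 libraries overlapped, so their order is not settled beyond their spread. Next came Lta with a mean over the 4 libraries of 765 normalised reads per kilobase (693 to 855), Ltb with 499.7 (459 to 575), Tnfrsf9 with 195 (162 to 243), Tnf with 109.0 (89.2 to 127), Tnfrsf4 with 57.5 (47.2 to 63.8) and Cd27 with 17.9 (15.8 to 21.3). From Tnfrsf18 downward no gene's range reached that of its neighbour. With the union of all annotated exons as the length the order was the same for all 8 genes, but then Tnfrsf9 and Tnf overlapped and Icos and Tnfrsf18 did not. Among 12460 protein-coding genes ranked per kilobase within each library, Icos stood between the 96.6 and 97.5 percentile, Tnfrsf18 between 95.5 and 96.9, and Cd27 between 23.9 and 26.5.

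**Figure D1:**
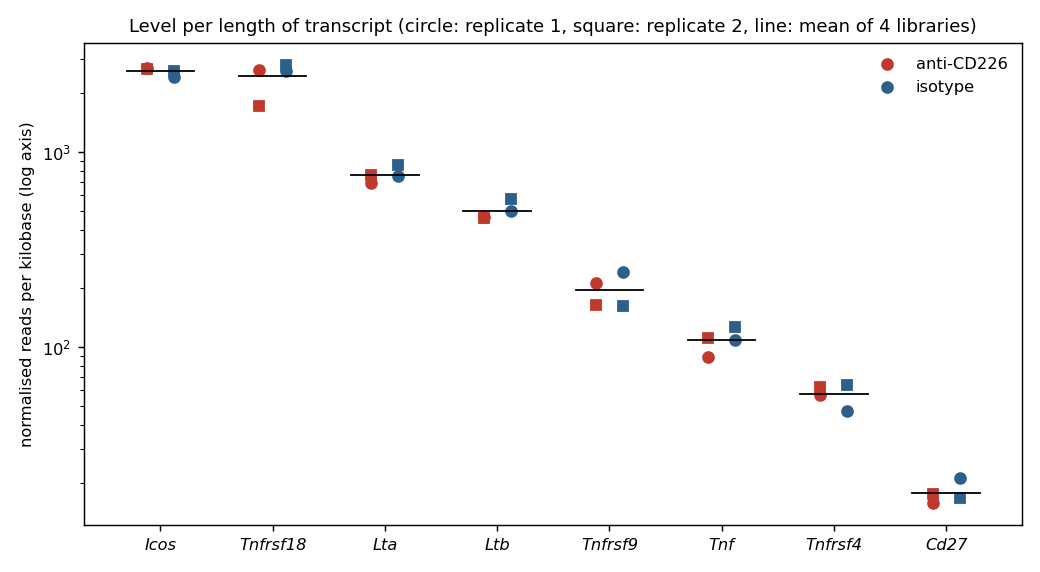
Normalised reads per kilobase of transcript (log axis) for the 8 costimulatory genes in each library, ordered by their mean over the 4 libraries (line); circles are replicate 1 and squares replicate 2, in red for anti-CD226 and blue for isotype. Icos and Tnfrsf18 share a range near 2600, and Cd27 lies lowest at 15.8 to 21.3.

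No costimulatory gene passed the test between anti-CD226 and isotype libraries: 0 of 8 had an adjusted p below 0.05 (limma on log2(value + 1), Benjamini-Hochberg over 13010 genes), beside 0% of all genes tested. All 8 passed the filter of a mean of at least 10 normalised reads. At an unadjusted p below 0.05 the count was also 0 of 8, beside 2.37% of all genes tested (308 genes). No second test tool was run. With 2 libraries a group, the smallest two-sided p of an exact permutation test is 0.333. Of the 8 genes, 2 had a higher and 6 a lower fitted level in anti-CD226 libraries, and the median log2 fold change was -0.15. Over all 13010 genes 6647 were higher and 6363 lower, and that median was 0.0066. Both anti-CD226 libraries lay above both isotype libraries in 1 of 8 genes, Icos, beside 13.8% of all genes tested, and below them in 1 of 8, Ltb, beside 13.0%. The median absolute log2 fold change was 0.15 over the 8 genes and 0.17 over all genes tested. In bulk RNA a change in the number of cells that carry a transcript and a change in the transcript per cell cannot be told apart.

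**Figure D2:**
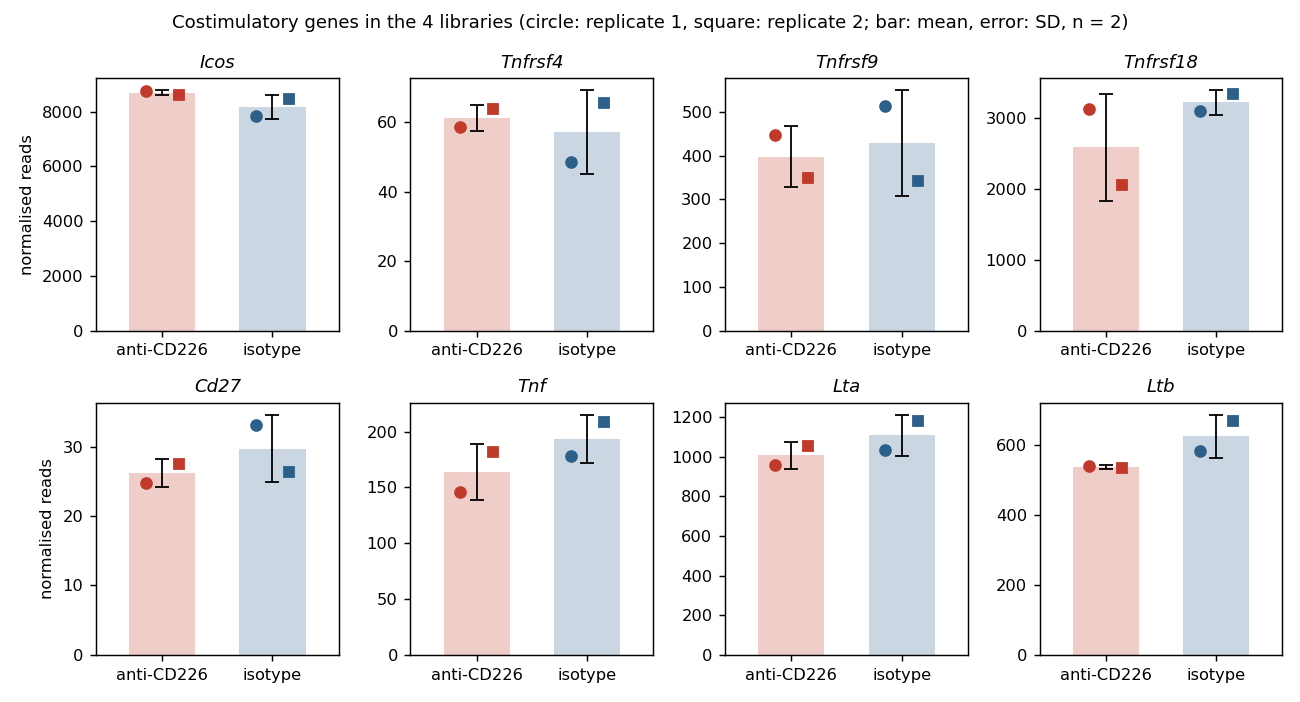
Normalised reads of each costimulatory gene in the anti-CD226 (red) and isotype (blue) libraries; circles are replicate 1, squares replicate 2, bars the mean and error bars the SD of 2 libraries. The groups stand apart in Icos and Ltb and overlap in the other 6 genes, and the lone low value of Tnfrsf18 is anti-CD226 replicate 2.

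Icos was abundant and nearly level across the 4 libraries. It had 8749 and 8625 normalised reads in anti-CD226 libraries, against 7859 and 8471 in isotype libraries. Both anti-CD226 values lay above both isotype values, by a margin smaller than the gap between the isotype libraries. The means were 8687 ± 87.7 in anti-CD226 and 8165 ± 432 in isotype libraries (SD, n = 2 each), a log2 fold change of 0.09 ± 0.15 (SE, limma, adjusted p = 0.98). The 95% interval of the fold change ran from 0.830 to 1.37. Under upper quartile scaling and after removal of the length trend of each library, the groups overlapped. Icos spans positions 60977927 to 61000320 of chromosome 1 (plus strand). Its values were close to, but not exactly, whole reads, and Gm37039, a gene model that overlaps it on the same strand, had at most 70.3 normalised reads.

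Tnfrsf18, which encodes GITR, had the largest fitted difference of the 8 genes, and it rested on 1 library. It had 3121 and 2051 normalised reads in anti-CD226 replicates 1 and 2, against 3097 and 3337 in isotype libraries. Anti-CD226 replicate 1 lay inside the isotype range and replicate 2 well below it. The means were 2586 ± 757 in anti-CD226 and 3217 ± 170 in isotype libraries, and the log2 fold change was -0.35 ± 0.22 (SE, limma, adjusted p = 0.98), or 1.27-fold lower with an interval of the fold change from 0.553 to 1.12. Without anti-CD226 replicate 2 the log2 fold change was -0.04, which did not pass. Without anti-CD226 replicate 1 it was -0.65 and passed (adjusted p = 0.0087), the only call of any of the 8 genes under any alternative run, in a fit where 1633 of the 13010 genes passed. The ILC2 markers were split: Il13, Il5, Klrg1, Thy1 and Areg were also lowest in anti-CD226 replicate 2. Gata3, Rora and Ptprc were highest there, and Il1rl1 and Il7r lay between. Il13 had 2725 and 921 normalised reads in anti-CD226 and 2773 and 3419 in isotype libraries. Il5 had 85431 and 67864 in anti-CD226 and 95010 and 97655 in isotype libraries. Klrg1 had 3158 and 2110 in anti-CD226 and 2939 and 3307 in isotype libraries, and Thy1 141 and 76.0 in anti-CD226 and 127 and 194 in isotype libraries. Areg had 889 and 614 in anti-CD226 and 779 and 800 in isotype libraries. Gata3 had 14911 and 17310 in anti-CD226 and 14198 and 13811 in isotype libraries. Rora had 3928 and 4865 in anti-CD226 and 3536 and 3386 in isotype libraries. Ptprc had 9302 and 12392 in anti-CD226 and 9419 and 8450 in isotype libraries. The part of such differences in the Tnfrsf18 values was not tested. The transcript is short, at 1189 bases, and after removal of each library's length trend the log2 fold change was -0.20. The 2 groups overlapped as deposited but stood apart, lower in anti-CD226, under total scaling, under quantile normalisation and with the length trend removed. The share of all genes that stood apart under these settings is not given here. The antisense gene Gm16008 overlaps it and had 25.4 and 55.3 normalised reads in anti-CD226 libraries against 29.5 and 22.4 in isotype libraries. The values of Tnfrsf18 were not whole reads, and strand was not stated for the counting, so reads of the pair cannot be told apart. Tnfrsf18 lies on chromosome 4 from 156026164 to 156028895.

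Its neighbour Tnfrsf4, 9551 bases upstream on the same strand, was expressed at a far lower level. Tnfrsf4, which encodes OX40, lies on chromosome 4 from 156013843 to 156016612 and had 58.7 and 63.9 normalised reads in anti-CD226 libraries, against 48.6 and 65.7 in isotype libraries. Both anti-CD226 values lay inside the isotype range. The values rest on 57 and 58 reads in anti-CD226 and 44 and 85 in isotype libraries, and the exact 95% Poisson intervals of all 4 overlapped, from 35.3 to 65.3 in the lowest library to 52.5 to 81.2 in the highest. These intervals cover counting error only, and reads of an amplified library are not independent molecules. The log2 fold change was 0.11 ± 0.30 (SE, limma, adjusted p = 0.98), and the interval of the fold change ran from 0.674 to 1.74.

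Tnfrsf9, which encodes 4-1BB, an activation-induced receptor, varied more within groups than between them. It had 448 and 348 normalised reads in anti-CD226 libraries, against 514 and 343 in isotype libraries. The anti-CD226 values lay between the isotype values, and replicate 1 was the higher library in both groups. The means were 398 ± 70.4 in anti-CD226 and 428 ± 121 in isotype libraries, with a log2 fold change of -0.09, a standard error of 0.25 (limma, adjusted p = 0.98) and an interval of the fold change from 0.633 to 1.40. The gene spans positions 150914562 to 150946102 of chromosome 4 (plus strand), where Camta1 overlaps it on the other strand.

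Cd27, a receptor best known on T cells and natural killer cells, was near the lower end of what could be tested. It had 24.7 and 27.6 normalised reads in anti-CD226 libraries, against 33.2 and 26.3 in isotype libraries, from 24 to 34 reads a library. The groups overlapped, as did the Poisson intervals of all 4 libraries. The log2 fold change was -0.17 ± 0.38 (SE, limma, adjusted p = 0.98), and its interval, a fold of 0.483 to 1.63, was the widest of the 8 genes. Cd27 spans positions 125232622 to 125237010 of chromosome 6 (minus strand). Vamp1 overlaps it on the plus strand and had between 64.1 and 93.7 normalised reads.

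Ltb was the ligand whose groups stood apart. It had 540 and 532 normalised reads in anti-CD226 libraries, against 580 and 667 in isotype libraries. Both anti-CD226 values lay below both isotype values, and the isotype libraries differed more from each other than isotype replicate 1 did from anti-CD226 replicate 1. The means were 536 ± 5.07 in anti-CD226 and 623 ± 61.3 in isotype libraries. The SD of 5.07 is below counting error, which for 483 reads is 4.55% of the value. The log2 fold change was -0.21 ± 0.18 (SE, limma, adjusted p = 0.98), and the interval of the fold change ran from 0.648 to 1.15. With each library's length trend removed it was -0.07 and the groups overlapped; the annotated transcript has 1160 bases.

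Lta and Tnf, whose fitted levels were also lower, overlapped between the groups. Lta had 959 and 1056 normalised reads in anti-CD226 libraries, against 1037 and 1182 in isotype libraries. Its log2 fold change was -0.14 ± 0.17 (SE, limma, adjusted p = 0.98), an interval of the fold change from 0.689 to 1.20, and it was -0.02 with the length trend removed. Tnf had 146 and 182 normalised reads in anti-CD226 libraries, against 178 and 209 in isotype libraries. Here anti-CD226 replicate 2 lay inside the isotype range and replicate 1 below it, and the log2 fold change was -0.24 ± 0.22 (SE, limma, adjusted p = 0.98; interval of the fold change 0.593 to 1.21). Among the 3 ligands the order of levels per kilobase was Lta, Ltb, Tnf in every library. With the length trend removed the log2 fold change of Tnf was -0.15. Isotype replicate 2, the most deeply sequenced library, had the highest value of all 3 ligand genes. Its length trend was also the most negative of the 4 libraries (rho -0.49). Macrophages also transcribe Tnf; the macrophage marker sum was highest in anti-CD226 replicate 2, with and without Chil3, where Tnf had 182 normalised reads, and its part in the value was not tested.

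**Figure D3:**
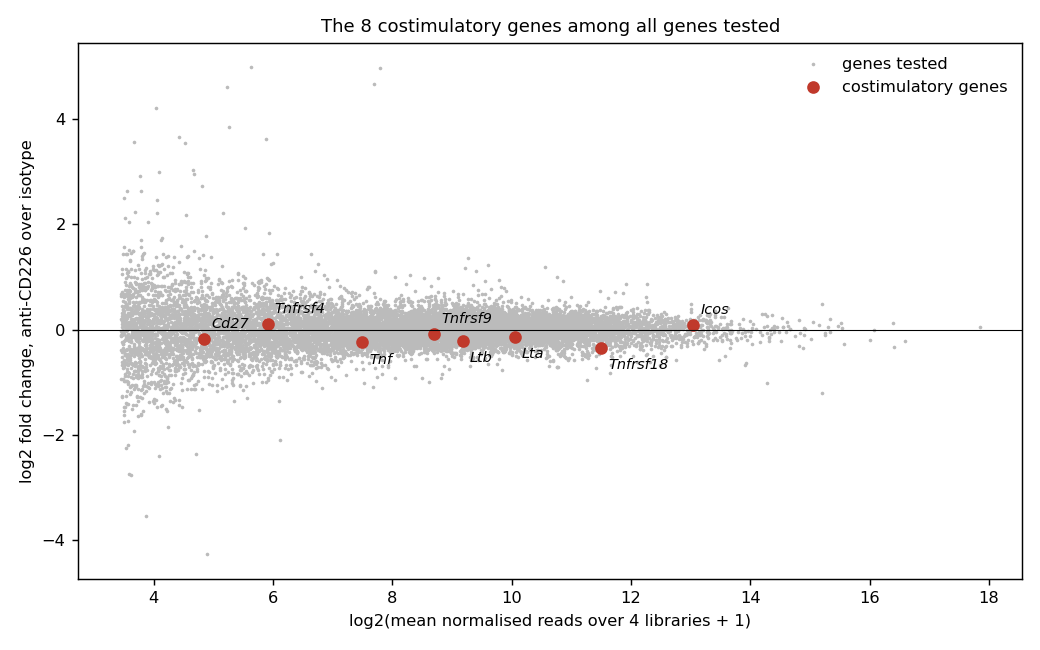
Log2 fold change of anti-CD226 over isotype against the log2 mean level for the 13010 genes tested (grey), with the 8 costimulatory genes in red. All 8 lie between -0.35 and 0.11, within the cloud of other genes of like level.

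Of the 5 ligands of these receptors, 3 passed the filter on low values. Icosl, the ligand of ICOS, had 228 and 214 normalised reads in anti-CD226 libraries against 228 and 176 in isotype libraries. Tnfsf4, the OX40 ligand, had 356 and 461 in anti-CD226 libraries against 420 and 405 in isotype libraries. Tnfsf9, the 4-1BB ligand, had 233 and 259 in anti-CD226 libraries against 233 and 267 in isotype libraries. All 3 overlapped between the groups. Per kilobase, Tnfsf4 had a mean of 223 normalised reads and its receptor gene Tnfrsf4 57.5. Cd70, the ligand of CD27, was not tested, with 1.03 and 0 normalised reads in anti-CD226 libraries and 0 and 6.18 in isotype libraries. Tnfsf18 was not analysed here. Of the 3 ligands tested 0 passed the test, and their fitted log2 fold changes were 0.14 for Icosl, -0.03 for Tnfsf4 and -0.02 for Tnfsf9; those of Tnfsf4 and Tnfsf9 turned positive with the length trend removed.

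Among the receptors that TNF and the lymphotoxins act on, Tnfrsf14 differed most. Tnfrsf14 encodes HVEM, which binds lymphotoxin alpha and LIGHT and also engages the inhibitory receptor BTLA. It had 69.0 and 89.3 normalised reads in anti-CD226 libraries, against 38.7 and 40.9 in isotype libraries. Both anti-CD226 libraries lay above both isotype libraries. The log2 fold change was 0.96 ± 0.29 (SE), an interval of the fold change from 1.22 to 3.12, an unadjusted p of 0.012 and an adjusted p of 0.98 (limma), so it missed the threshold. The log2 fold change was 1.15 without anti-CD226 replicate 1 and 0.78 without anti-CD226 replicate 2. The macrophage marker sum, with and without Chil3, was also highest in anti-CD226 replicate 2, and its part in the Tnfrsf14 values was not tested. TNF receptor 2 (Tnfrsf1b) had 3482 and 4334 normalised reads in anti-CD226 libraries against 3832 and 3278 in isotype libraries. TNF receptor 1 (Tnfrsf1a) had 31.9 and 34.2 in anti-CD226 libraries against 47.5 and 25.5 in isotype libraries. The lymphotoxin beta receptor gene Ltbr had 54.6 and 45.2 in anti-CD226 libraries against 49.7 and 47.9 in isotype libraries. These 3 overlapped between the groups, and per kilobase the mean of Tnfrsf1b, 977, was far above that of Tnfrsf1a, 16.1.

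The rest of the TNF superfamily gave no call. Of 20 other receptor genes listed, 17 were in the table and 11 tested, of which 3 had a higher and 8 a lower fitted level and 0 passed the adjusted threshold, at a median log2 fold change of -0.11. In 5 of the 11 both anti-CD226 libraries lay below both isotype libraries, beside 13.0% of all genes tested. Tnfrsf12a, the receptor of TWEAK, had 114 and 91.5 normalised reads in anti-CD226 libraries against 141 and 167 in isotype libraries (log2 fold change -0.58, limma adjusted p = 0.98). Tnfrsf25, the receptor DR3 through which TL1A acts on ILC2s, had 1427 and 1081 in anti-CD226 libraries against 1453 and 1527 in isotype libraries. Of 11 other ligand genes listed, 7 were in the table and 5 tested, with 4 higher, 1 lower, a median of 0.12 and 0 past the threshold. Tnfsf8, the CD30 ligand, had 198 and 247 normalised reads in anti-CD226 libraries against 189 and 172 in isotype libraries. Tnfsf12, which encodes TWEAK, had 13.6 and 14.95 in anti-CD226 libraries against 2.81 and 18.5 in isotype libraries, and its sign turned without isotype replicate 1. The Tnfsf12 value in isotype replicate 1 is below that of 3 reads in its library, 3.32.

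Genes that act below or around the receptors showed wider differences than the 8 genes themselves in a few cases. Of 12 TRAF and proximal adaptor genes tested, 7 were higher and 5 lower (median 0.07), with 0 past the threshold. The adaptor Traf6 had 769 and 1038 normalised reads in anti-CD226 libraries against 823 and 640 in isotype libraries, and the death domain adaptor Fadd had 167 and 89.0 in anti-CD226 libraries against 144 and 187 in isotype libraries. Of 6 genes of ICOS signalling, 4 were higher and 2 lower (median 0.08). Pik3ca, a catalytic subunit of PI3-kinase, had 771 and 1092 in anti-CD226 libraries against 543 and 605 in isotype libraries (log2 fold change 0.68, limma adjusted p = 0.98). The related Pik3cb had 298 and 340 in anti-CD226 libraries against 292 and 260 in isotype libraries. Pik3ca encodes a long transcript of 8917 bases, and with the length trend removed its log2 fold change was 0.48.

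Factors that shorten the life of cytokine and costimulatory mRNAs were listed because Icos, Tnfrsf4 and Tnf are known mouse targets of such factors. Of 6 tested, 4 were higher and 2 lower (median 0.12), with 0 past the threshold. Zfp36l1, which promotes decay of mRNAs with AU-rich elements, had 905 and 996 normalised reads in anti-CD226 libraries against 629 and 624 in isotype libraries. Both anti-CD226 libraries lay above both isotype libraries. Its log2 fold change was 0.60 ± 0.17 (SE), an unadjusted p of 0.0080 and an adjusted p of 0.98 (limma). Zc3h12a, the ribonuclease Regnase-1, had 110 and 67.2 in anti-CD226 libraries against 130 and 104 in isotype libraries. Of 3 shedding genes tested, 3 were higher and 0 passed: Adam10 had 2531 and 3493 in anti-CD226 libraries against 2696 and 2235 in isotype libraries, and Adam17, the sheddase of TNF, had 2025 and 2303 in anti-CD226 libraries against 2196 and 1828 in isotype libraries. Of 3 genes tested from a list of CD28 family receptors and their ligands, all 3 had a lower fitted level and 0 passed. For Ctla4 the fitted log2 fold change was only -0.00455, and its mean was higher in anti-CD226 (25.6) than in isotype libraries (21.3). Cd28 had 19.6 and 15.4 in anti-CD226 libraries against 17.7 and 20.9 in isotype libraries. Cd80, a ligand of CD28, had 2.06 and 7.72 in anti-CD226 libraries against 18.8 and 18.5 in isotype libraries. The lowest of these Cd80 values is below that of 3 reads in its library, 3.09, and the gene passed the filter only through the isotype libraries.

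**Figure D4:**
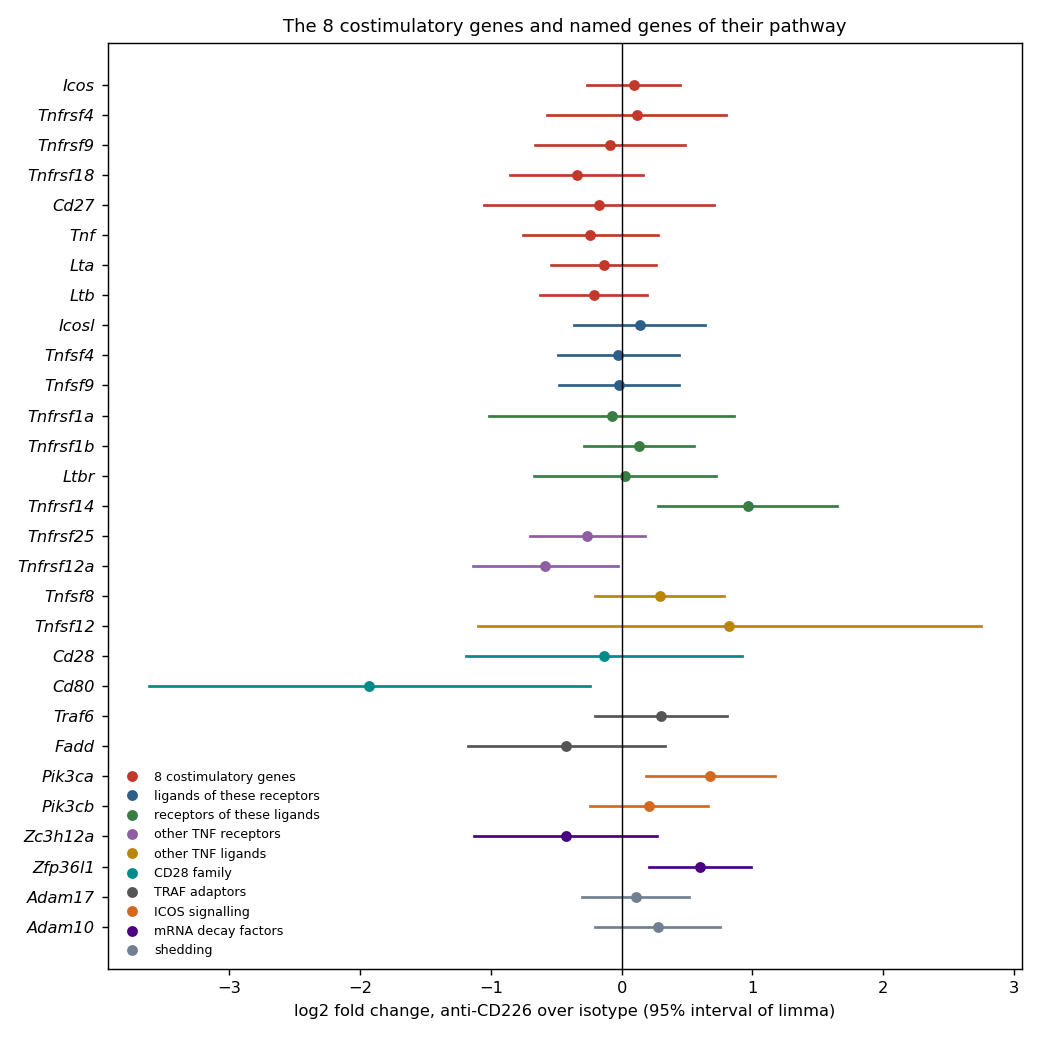
Log2 fold change of anti-CD226 over isotype (point) with its 95% interval from limma (line) for the 8 costimulatory genes and the named genes of their pathway, coloured by list. All 8 costimulatory intervals span 0, and those of Tnfrsf14, Tnfrsf12a, Pik3ca, Zfp36l1 and Cd80 do not, without adjustment for the number of genes; Cd80 passed the filter on low values only through the isotype libraries, so its interval is a description.

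Over the other pathway lists together, 53 of 72 genes were tested. Fitted levels were higher for 29 and lower for 24, the median log2 fold change was 0.03, and 0 passed the adjusted threshold. Profiles over the 4 libraries were also matched among genes with a mean of 50 or more, by the root mean square difference of their deviations on the log2 scale. The closest to Icos was Phyh, at a difference 0.0051 the closest to Tnfrsf18 was Batf, at 0.012. Tnfrsf4 was matched by Dnajb2 (0.019), Tnfrsf9 by Zfp28 (0.017), Tnf by Tbc1d32 (0.015), Lta by Tmtc4 (0.0088) and Ltb by Zfp764 (0.015). Of 10336 genes, 299 lay within 0.05 of Icos, 130 of Tnfrsf18, 73 of Lta, 62 of Ltb, 30 of Tnfrsf4, 14 of Tnf and 6 of Tnfrsf9.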

How the data were processed

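RNA of 4 libraries was measured, 2 anti-CD226 and 2 isotype. Per the labels' protocols, 10 pg of RNA a sample (a unit that may be misstated) was made into cDNA with a low-input kit. The submitters' processing notes name STAR 2.7.8, Partek 10.0, DESeq2 and build mm10. The counting tool, annotation and strand setting are not named in these sources. For each gene the authors deposited a normalised signal in every library. Of the 12771 to 13599 values checked per library, between 73.5% and 75.1% were whole multiples of 1 step per library (tolerance 0.02 of a step). The highest and lowest values were left out of that share. The deposited signal was therefore treated as estimated reads divided by 1 factor, whole reads were not recovered, and no count model was run. For 6 of the 8 genes every value was whole within that tolerance. A read was worth 0.773 to 1.11 normalised reads. The 108 gene columns of the lists were checked singly against the unit, and the remaining columns were assumed to be alike.

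Genes with a mean of at least 10 were tested with limma 3.58.1 (R 4.3.3) on log2(value + 1), with a mean-variance trend, no replicate term, two-sided, Benjamini-Hochberg adjusted. Fold changes and their 95% intervals are on that scale, which understates low genes. The fit has 2 residual and 5.81 prior degrees of freedom. Lengths and positions are from GENCODE M21 (GRCm38, the assembly of mm10), with a length for 97.5% of genes. Alternatives covered pseudocount, filter, scaling, variance prior and trend, a replicate block, the length trend and each library left out. The genes and lists were chosen with earlier results of these data known. Named are the 8 genes, their direct partners and the closest profile of each of the 8 with a mean of 50 or more. From each other list at most 2 genes are named, those of lowest unadjusted p. Ctla4 is an exception, and its results under the alternatives are not given.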

Additional observations from a re-analysis of the deposited data

How the results depend on the processing

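Of the 8 genes, none changed sign under any of the pseudocounts, filters, scalings, variance settings, the replicate block or the removal of the length trend, and their adjusted p stayed between 0.974 and 0.999; Cd27 was not tested with a filter of 50. The block used the numbers in the titles, which the data did not bear out as pairs (correlation of deviations across genes -0.24). With the replicate block 20 genes passed over the whole table and 0 of the 8; with crossed pairs, added after seeing the data, 61 passed and 0 of the 8. Leaving out 1 library gave between 12 and 1633 calls over the table and 0 to 1 among the 8, the call being Tnfrsf18 without anti-CD226 replicate 1. The number of the 8 genes whose groups stood apart was 2 as deposited, 1 under upper quartile scaling (Ltb), 1 with the length trend removed (Tnfrsf18) and 3 under total scaling and under quantile normalisation. Of all genes tested, 13.8% stood apart higher and 13.0% lower as deposited. These shares are not given for the other settings, so the counts there have no background beside them.

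Sign changes among named genes were -0.00664 for Ltbr under upper quartile scaling, and 0.047 for Tnfsf4 and 0.11 for Tnfsf9 with the length trend removed. With 1 library left out, the log2 fold change ranged from -0.10 to 0.33 for Tnfrsf4, -0.38 to 0.20 for Tnfrsf9, -0.045 to 0.32 for Icosl, -0.21 to 0.16 for Tnfsf4, -0.12 to 0.076 for Tnfsf9, -0.51 to 0.36 for Tnfrsf1a, -0.025 to 0.29 for Tnfrsf1b, -0.11 to 0.16 for Ltbr, -0.35 to 2.00002 for Tnfsf12, -0.30 to 0.025 for Cd28, -0.87 to 0.028 for Fadd and -0.025 to 0.24 for Adam17. For the genes of the 8 that kept their sign it ranged from 0.04 to 0.14 for Icos, -0.65 to -0.04 for Tnfrsf18, -0.33 to -0.01 for Cd27, -0.40 to -0.08 for Tnf, -0.23 to -0.04 for Lta and -0.31 to -0.11 for Ltb. Without anti-CD226 replicate 1, the log2 fold change was 1.15 for Tnfrsf14, -0.87 for Fadd, 0.93 for Pik3ca, 0.67 for Zfp36l1 and 0.51 for Adam10. The causes were not tested. Where a group was left with 1 library, its spread was taken from the other group. Depth limits Cd27 and Tnfrsf4, with 24 to 85 reads a library.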
